A study of Mus musculus with 262 samples.

Results

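Principal cells are one of the main epithelial cell types of the renal collecting duct, and 74 of the 235 single cells profiled here carried that name. They were taken as every column of the single-cell expression table named as a principal cell. No expression value was used to choose them here, although the names themselves were given by the authors to cells of this same table. The rest comprised intercalated cells (87 of type A, 23 of type B), 32 cells named non-epithelial and 19 from the proximal tubule. The cells came from kidneys of male C57BL/6 mice of 2 months of age, with no further genotype or treatment named, and were sorted and then captured singly on a C1 microfluidic chip. Of the principal cells, 37 were labelled as sorted with DBA (a lectin that binds collecting duct cells) and 37 with DBA and c-Kit (the receptor encoded by Kit) together. Columns could not be tied to a sort label, a chip or an animal, so the 74 cells stand as 1 sample: their spread is described and cell types were not tested against each other. The same genes were then followed in 2 pools of cells sorted with DBA against 2 sorted with c-Kit, and in 11 microdissected cortical collecting ducts (CCD) against 8 cortical thick ascending limbs (cTAL), from male mice of the same strain and age.

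Principal cells reabsorb sodium and water and secrete potassium. Vasopressin binds its V2 receptor (Avpr2), raises cyclic AMP and brings the water channel Aqp2 to the apical membrane, and water leaves through the basolateral channels Aqp3 and Aqp4. Aldosterone acts through the mineralocorticoid receptor (Nr3c2), which the enzyme Hsd11b2 shields from glucocorticoids, on the epithelial sodium channel ENaC (Scnn1a, Scnn1b and Scnn1g), while the Na,K-ATPase and the potassium channel ROMK (Kcnj1) complete the exchange.

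The 250 bases before the start of 5 of the 6 marker genes are shown because these genes mark the principal cells below and were all higher in DBA pools and in CCD. RefSeq entries (GRCm38.p6) were matched for 5 of the 6 markers. Capitals mark matches on either strand to GATAA (GATA factors), TGACG (cyclic AMP response element), TGANTCA (AP-1) or the CP2 repeat (CP2 family factors: CCAG, any 6 bases, CCAG), where N is any base.
Aqp2: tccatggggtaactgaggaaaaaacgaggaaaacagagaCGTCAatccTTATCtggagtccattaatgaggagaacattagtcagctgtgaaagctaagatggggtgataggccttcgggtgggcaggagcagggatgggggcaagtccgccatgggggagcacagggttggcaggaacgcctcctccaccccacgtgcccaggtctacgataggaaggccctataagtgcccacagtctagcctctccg
Avpr2: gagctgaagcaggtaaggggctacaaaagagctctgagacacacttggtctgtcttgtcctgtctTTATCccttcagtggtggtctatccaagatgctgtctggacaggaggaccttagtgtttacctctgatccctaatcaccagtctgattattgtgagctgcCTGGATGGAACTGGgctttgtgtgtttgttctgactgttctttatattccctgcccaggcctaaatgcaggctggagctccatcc
Fxyd4: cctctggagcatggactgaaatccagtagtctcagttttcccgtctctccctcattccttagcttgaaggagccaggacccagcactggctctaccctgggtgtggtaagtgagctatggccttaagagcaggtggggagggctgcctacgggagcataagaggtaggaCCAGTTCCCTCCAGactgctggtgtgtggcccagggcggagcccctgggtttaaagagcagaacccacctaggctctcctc
Aqp3: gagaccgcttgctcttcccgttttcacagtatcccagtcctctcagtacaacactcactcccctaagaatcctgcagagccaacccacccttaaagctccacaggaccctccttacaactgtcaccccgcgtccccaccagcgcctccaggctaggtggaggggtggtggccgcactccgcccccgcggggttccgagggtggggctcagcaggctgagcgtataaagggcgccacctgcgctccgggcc
Mcoln3: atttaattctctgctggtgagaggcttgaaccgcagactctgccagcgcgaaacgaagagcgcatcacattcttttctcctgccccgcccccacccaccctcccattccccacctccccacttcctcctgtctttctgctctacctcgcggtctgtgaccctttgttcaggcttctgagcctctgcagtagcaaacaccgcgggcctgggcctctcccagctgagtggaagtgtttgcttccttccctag
The windows are chr15:99578806-99579055 (plus strand) for Aqp2, chrX:73891852-73892101 (plus) for Avpr2, chr6:117937336-117937585 (minus) for Fxyd4, chr4:41098184-41098433 (minus) for Aqp3 and chr3:146121541-146121790 (plus) for Mcoln3. Aqp2 held 1 GATAA and 1 TGACG match, Avpr2 1 GATAA and 1 CP2 match, and Fxyd4 1 CP2 match, while Aqp3 and Mcoln3 held none of the 4. Among 32851 windows of this length, 22.6% held GATAA, 17.8% TGACG, 6.75% TGANTCA and 2.78% the CP2 repeat. The matches describe letters only.

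Levels are TPM (a transcript abundance), which corrects for transcript length and sums to a fixed total in each cell, so that genes can be compared but sequencing depth is not kept. A gene was called detected at 1 TPM or more. Principal cells had between 1319 and 3921 detected genes, with a median of 2924. Mitochondrially encoded genes took 0.0156% to 66.1% of TPM with a median of 9.64%, and 3 cells were above 50%. Of 15252 genes detected in at least 1 principal cell, 1614 were detected in at least 37 and 62 in all 74.

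All 6 marker genes had their highest mean in principal cells, which the authors' naming of cells in this same table may already fix. Aqp2 (chr15:99579055-99584547, plus strand, GRCm38) ranged from 65.1 to 6633 TPM with a median of 1821, and Aqp3 (chr4:41092722-41098183, minus strand) from 5.4 to 10148 TPM with a median of 1303. Fxyd4, a regulatory subunit of the Na,K-ATPase, ranged from 561 to 16003 TPM with a median of 5123, the highest of the 6. Hsd11b2 ranged from 2.57 to 4456 TPM with a median of 770.2. These 4 genes were detected in 74 of 74 cells (exact Clopper-Pearson 95% interval 95.1% to 100%; such intervals cover counting error only). Avpr2 was detected in 62 cells (83.8%, 73.4% to 91.3%), from 0 to 3472 TPM with a median of 455. Mcoln3, a cation channel of the mucolipin family, was detected in 66 (89.2%, 79.8% to 95.2%), from 0 to 3469 TPM with a median of 137. All 6 markers were detected together in 57 cells, 5 in 14 and 4 in 3, and 70 cells held at least 4 of them at 100 TPM or more.

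Other cells were not free of these genes. At least 4 of the 6 stood at 100 TPM or more in 7 of 32 non-epithelial and 5 of 19 proximal tubule cells, but in 0 of 23 type B and 3 of 87 type A cells. Aqp2 reached 3113 TPM in a proximal tubule cell, above the principal cell median, although the proximal median was 47.7 TPM. The proximal tubule cells had the second highest mean of each marker. For each marker the range in principal cells overlapped that of at least 1 other type while medians stood far apart, with Fxyd4 at 6.71 TPM in proximal and 4.90 TPM in type A cells. Whether these cells held RNA of more than 1 cell was not tested.

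**Figure D1:**
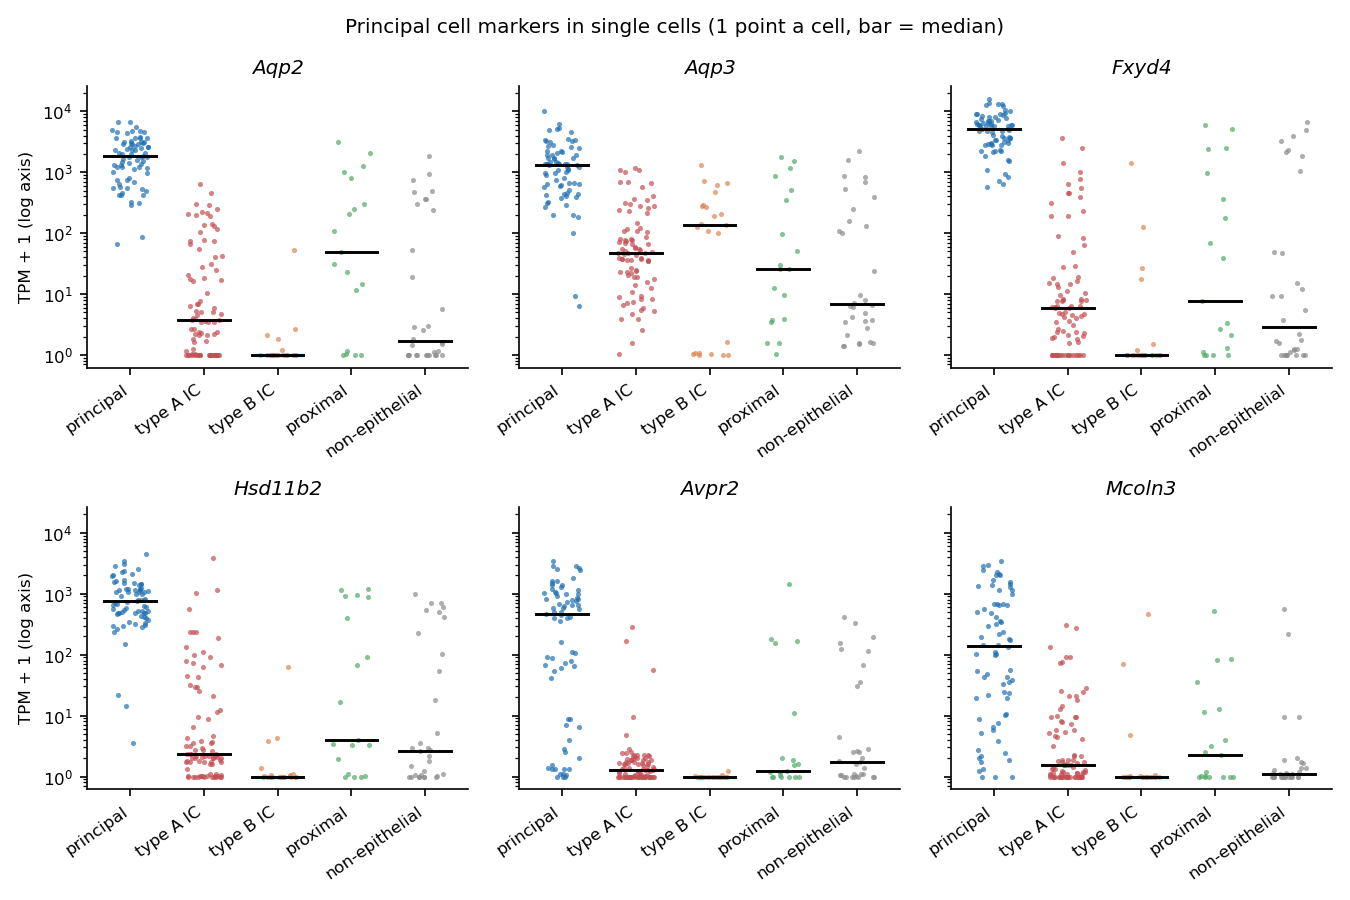
Each point is 1 cell and each bar a median, with TPM + 1 on a log axis for the 6 markers in the 5 cell types (IC, intercalated cell). Principal cell medians run from 137 TPM for Mcoln3 to 5123 TPM for Fxyd4, and some cells of each other type reach principal cell levels of at least 1 marker.

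Genes of water transport and vasopressin signalling were present to very different degrees. Of 9 genes, 4 were detected in at least 37 cells and 6 had their highest mean in principal cells (66.7%, against 32.7% of all genes detected in a principal cell). Aqp2, Aqp3 and Avpr2, which are themselves principal cell markers, count among both the 4 and the 6. Aqp4 was detected in 28 cells (37.8%, 26.8% to 49.9%) and reached 665 TPM. Avpr2 was detected in 25 of the 28 cells with Aqp4, and in 37 without it. Gnas, the stimulatory G protein subunit, was detected in 60 cells with a median of 52.5 TPM. Of the adenylyl cyclases, Adcy6 was detected in 19 cells and Adcy3 stood at 0 TPM in all 74. Prkaca and Prkacb, catalytic subunits of protein kinase A, were each detected in 33 cells.

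The 3 ENaC subunits were uneven. Scnn1b was detected in 71 cells (95.9%, 88.6% to 99.2%), from 0.14 to 2657 TPM with a median of 308. Scnn1g was detected in 62 cells, from 0 to 2850.0 TPM with a median of 102. Scnn1a was detected in 54 cells (73.0%, 61.4% to 82.6%), from 0 to 397 TPM with a median of 7.82. Scnn1a was the lowest subunit in 55 cells and the highest in 1, whereas Scnn1b was the highest in 48 and Scnn1g in 25. All 3 were detected together in 47 cells, and in 24 at a limit of 10 TPM. Scnn1b and Scnn1g had their highest mean in principal cells, while the Scnn1a mean of 31.1 TPM lay below the 34.5 TPM of type B cells.

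Regulators of sodium transport were found in fewer cells. Nr3c2 was detected in 23 cells (31.1%, 20.8% to 42.9%), and 1 cell at 1983 TPM held 56.3% of its summed level. Sgk1, an aldosterone-induced kinase, was detected in 38 cells with a median of 1.53 TPM and a maximum of 2200.1 TPM. The ubiquitin ligase gene Nedd4l was detected in 44 cells, the protease gene Prss8 in 28 and the glucocorticoid receptor Nr3c1 in 9. Hsd11b2, in contrast, was detected in every cell. Of the 12 sodium and aldosterone genes, the marker Hsd11b2 among them, 4 had their highest mean in principal cells (33.3%). That share was 32.7% over all genes detected in a principal cell.

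Among Na,K-ATPase genes the beta subunit Atp1b1 was detected in 74 cells with a median of 762 TPM. Fxyd2, the gamma subunit, was detected in 57 cells, and its mean of 571 TPM lay far below the 13079 TPM of type B cells. Of 8 potassium channel genes 7 had their highest mean in principal cells (87.5%, against 32.7% of all genes detected in a principal cell). Kcnj1 was detected in 67 cells (90.5%, 81.5% to 96.1%), from 0.03 to 5539 TPM with a median of 426. Kcne1, a regulatory channel subunit, was detected in 67 cells with a median of 554 TPM and its known partner Kcnq1 in 31, with 28 cells holding both. The inward rectifiers Kcnj10 and Kcnj16 were detected in 50 and 58 cells, and together in 43. Kcnma1, the large-conductance channel, was detected in 1.

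**Figure D2:**
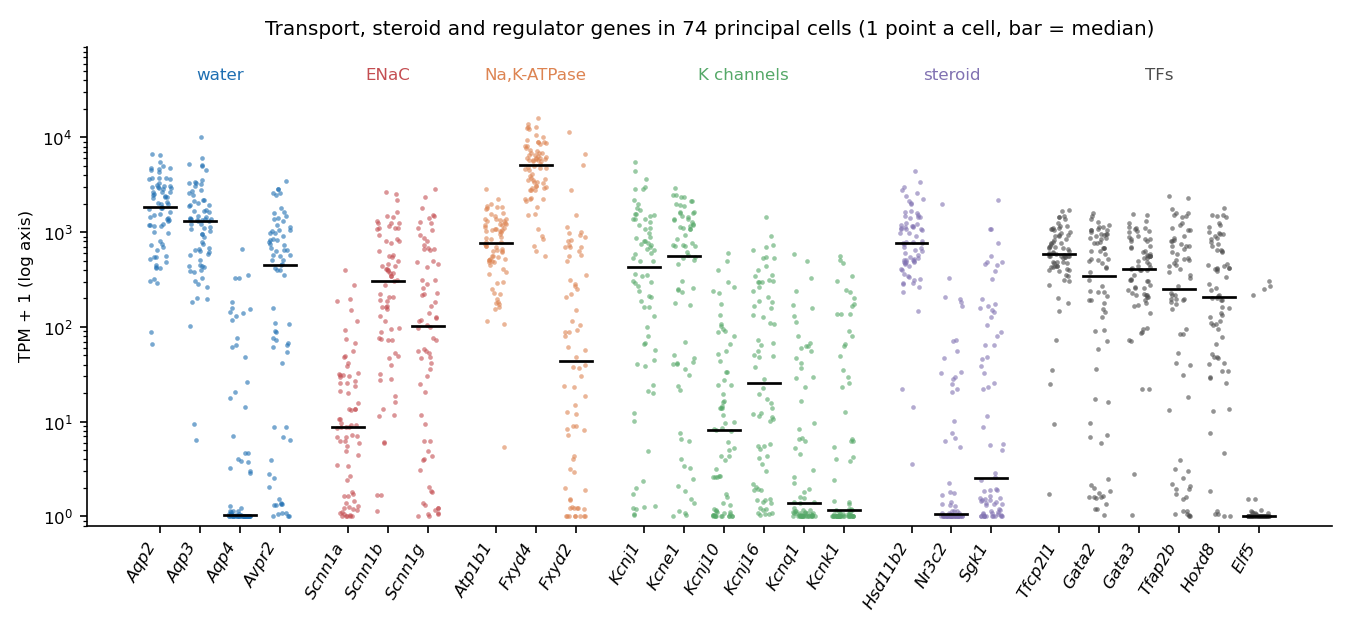
Each point is 1 of 74 principal cells and each bar a median, with TPM + 1 on a log axis for genes grouped by role (TFs, transcription factors). Aqp2, Fxyd4 and Atp1b1 form compact clouds, whereas Aqp4, Nr3c2, Kcnq1, Kcnk1 and Elf5 have medians below 1 TPM with single cells far above.

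The 14 transcription factors were listed with earlier results of these data known. Of these, 13 had their highest mean in principal cells (92.9%, against 32.7% of all genes detected in a principal cell). Tfcp2l1, a CP2 family factor, was the exception: it was detected in 73 cells with a mean of 672 TPM against 793 TPM in type A cells. Gata3 was detected in 73 cells with a median of 412 TPM, Gata2 in 63 with a median of 345 TPM, and both in 62. Hoxd8 was detected in 68 cells and Tfap2b in 62. The ETS factors Ehf and Elf3 were detected in 58 and 50 cells. Elf5, another ETS factor, was detected in 4 cells (5.41%, 1.49% to 13.3%), at 305, 272, 251 and 215 TPM. Pax8 and Hoxb7 were detected in 57 and 29 cells.

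Epithelial junction genes were widespread. Of 13 listed, 10 had their highest mean in principal cells (76.9%, against 32.7% of all genes detected in a principal cell). Cdh16, the kidney cadherin, was detected in 74 cells with a median of 368 TPM, Epcam in 72 and Cdh1 in 67. The claudin Cldn8 was detected in 70 cells with a median of 322 TPM and Cldn4 in 59. The keratin Krt18 was detected in 66 cells and Krt7 in 68, but Krt19 in 10 (13.5%, 6.68% to 23.5%). Of 11 listed receptors 0 were detected in at least 37 cells, where 1614 of 15252 genes detected in any principal cell were. Of the 11 receptors, 6 had their highest mean in principal cells (54.5%). Avpr2, detected in 62 cells, was listed with the water genes instead. Igf1r was detected in 30 cells, the prostaglandin receptor Ptger1 in 16, the endothelin receptor Ednrb in 15 and Egfr in 13, while Bdkrb2 and Oxtr stood at 0 TPM in all 74.

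Among secreted ligands, Btc (betacellulin, a ligand of the EGF receptor) was detected in 48 cells (64.9%, 52.9% to 75.6%), with a mean of 129.6 TPM against 11.0 TPM in type A cells, the next highest type. Jag1, a Notch ligand, was detected in 45 cells, Spp1 in 53 and Vegfa in 39. Wnt9b was detected in 10 cells, Wnt7b, Wnt4 and Edn1 in 3 each, and Ren1 in none. Of 7 primary cilium genes, Pkhd1, Bicc1 and Pkd2 were detected in 45, 45 and 37 cells. The tonicity regulator Nfat5 was detected in 47 cells, but its known targets Akr1b3, Slc5a3 and Slc6a6 in 21, 23 and 34. Of the 12 ligands 5, of the 7 cilium genes 3 and of the 6 tonicity genes 1 had their highest mean in principal cells. The shares were 41.7%, 42.9% and 16.7%, against 32.7% of all genes detected in a principal cell.

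Calb1, a calcium-binding protein best known from the distal convoluted and connecting tubule, was detected in 71 cells (95.9%, 88.6% to 99.2%), from 0.13 to 4317 TPM with a median of 675. Of the 7 other listed genes of those segments 2 were detected in at least 37 cells, S100g and Klk1 (a kallikrein gene, 46 cells, median 5.00 TPM). Trpm6 was detected in 7 cells. Slc8a1 and Trpv5 were detected in 3 cells each, and Slc12a3 (the thiazide-sensitive cotransporter) and Pvalb in 1 cell, the same for both, at 483 and 133 TPM. S100g, another calcium-binding protein, was detected in 41 cells but concentrated in 3, at 11865, 6263 and 5575 TPM. The first of these cells also held the highest Umod level, 3136 TPM, and the second the highest Trpv5 level, 441 TPM.

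Markers of other cell types were summed per cell. The 6 proximal markers had a median sum of 2.36 TPM and a maximum of 4572 TPM, the 4 thick limb markers 0.365 and 3599 TPM, and the 7 immune markers 10.5 and 3101 TPM. The 4 endothelial markers had a median sum of 0, with Emcn at 1212, 1169 and 776 TPM in 3 cells. The 3 stromal markers passed 100 TPM in 1 cell, and of the 2 podocyte markers none was detected. Highest means in principal cells were held by 3 of the 4 endothelial and 2 of the 3 stromal markers (75% and 66.7%). That share was 32.7% over all genes detected in a principal cell. Of the thick limb, proximal and immune markers 1, 0 and 0 did so. Detection was in 5 principal cells or fewer for 3 of the 4 endothelial and all 3 stromal markers. Of 5 cell cycle genes Mki67, Top2a and Ccnb1 were detected in 0 cells, and Cdk1 at 1143 TPM and Birc5 at 194 TPM in 1 and the same cell.

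Intercalated cell genes were followed in more detail. None of the 13 had its highest mean in principal cells, yet Atp6v1b1, a proton pump subunit, was detected in 66 cells with a median of 31.2 TPM. The 13 genes summed to between 0 and 4784 TPM with a median of 127. Foxi1, the intercalated cell transcription factor, was detected in 10 cells, the anion exchanger Slc4a1 in 14, Slc26a4 in 1 and Hmx2 in none. In 7 cells at least 4 of the 13 stood at 100 TPM or more. Aqp2 in those 7 ranged from 318 to 2088 TPM with a median of 1378, inside the range of the other 67 cells, whose median was 1985. The 6 principal markers summed to a median of 5591 TPM in the 7 and 10564 TPM in the 67.

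Low values changed along the table, which was noticed after the data had been examined. In columns 1 to 37, 1115 to 2281 genes had a value above 0 and below 1 TPM, and in columns 38 to 74, 1756 to 5490. The last stretch was itself uneven, with 1756 to 2915 such genes in columns 38 to 53 and 3732 to 5490 in columns 54 to 74. Atp6v0d2, a proton pump subunit, was exactly 0 in 33 of the first 37 columns and at least 0.67 TPM in each of the last 37. Atp6v1g3 was detected in 4 of the first and 37 of the last 37. Over all genes, 8 were detected in at most 10 of the first and at least 27 of the last 37, and 0 the other way. The 8 were Atp6v1g3, Guca2a, Atp6v0d2, Atp6v1c2, Atraid, H2-Ab1, Cd74 and H2-Aa, and each had its highest mean in a type other than principal cells. Of all genes detected in a principal cell, 32.7% had their highest mean in principal cells. Rare detection in the first 37 columns also lowers a principal cell mean, so the rule that picked the 8 may partly set this outcome. Among listed genes Fxyd2 was detected in 20 and 37 cells of the stretches, Spp1 in 17 and 36, and Klk1 in 11 and 35. Principal cell markers did not show such a step: Avpr2 was detected in 29 and 33 cells and Mcoln3 in 32 and 34. The 7 cells rich in intercalated genes all lay in columns 38 to 74. What the stretches stand for was not tested.

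**Figure D3:**
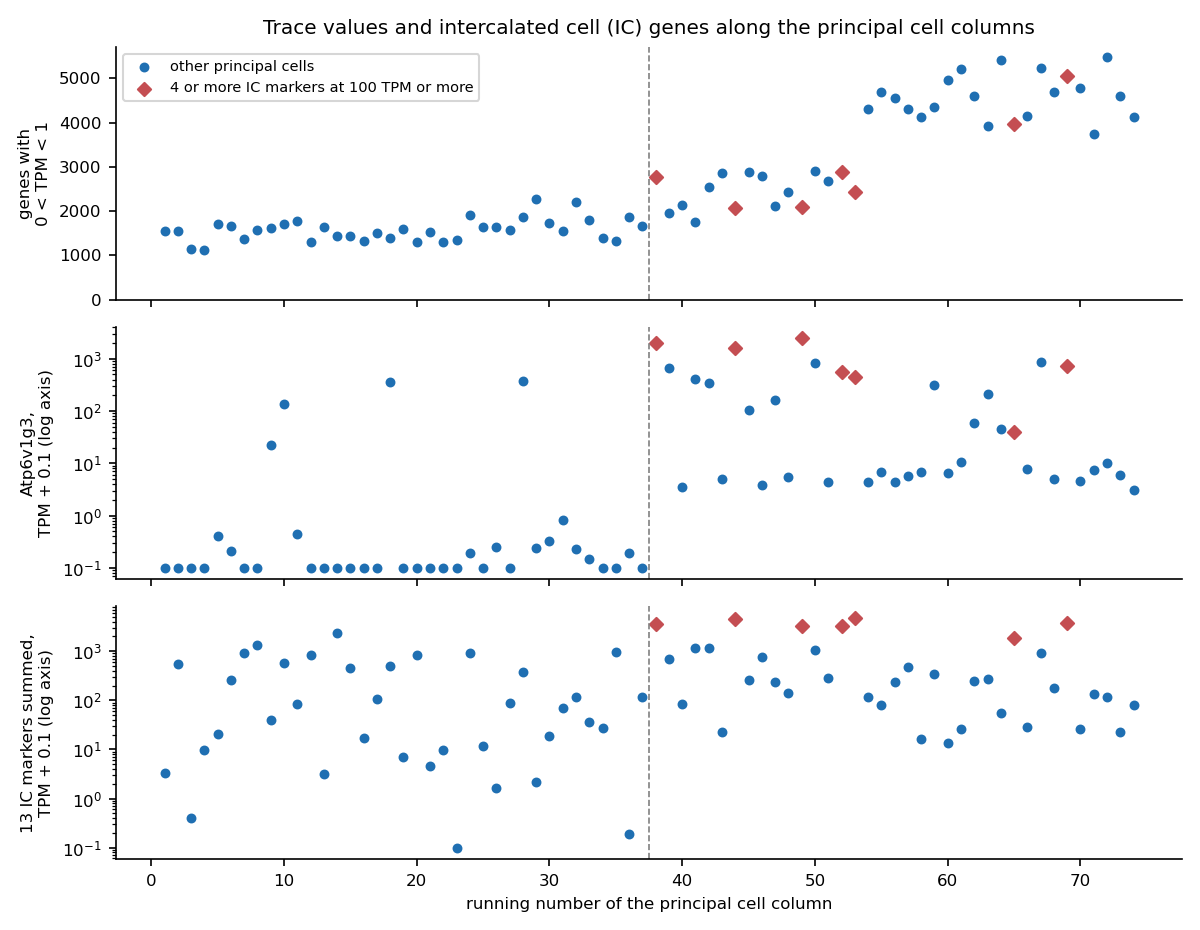
The horizontal axis is the running number of the 74 principal cell columns, with a dashed line after column 37. The panels give the number of genes above 0 and below 1 TPM, the Atp6v1g3 level and the sum of 13 intercalated cell (IC) markers, the last pair as TPM + 0.1 on log axes, and the 7 red diamonds, cells rich in IC markers, all lie to the right of the line.

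The most abundant transcripts were the nuclear RNA Malat1, with a mean of 53526 TPM, and Gm37376 with 42048 TPM. Of the 15 genes with the highest mean 6 were mitochondrially encoded, and the others were Actb, Sdc4, Ldhb, Fxyd4, Pdzk1ip1, Tmsb4x and Cox6a1. Sdc4 (syndecan-4, a cell surface proteoglycan) had a mean of 6852 TPM in the cells, against 384 and 399.8 TPM in the DBA pools, a table normalized separately. Pdzk1ip1 stood at 5449 TPM in the cells and 4202 and 4134 TPM in the pools. Aqp2 ran the other way from Sdc4, with 13651 and 11545 TPM in the pools.

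Genes were also ranked by the log2 ratio of the principal cell mean to the highest mean of another type, 1 TPM added, among the 1365 genes that averaged 50 TPM or more and were detected in 37 cells or more. The first 20 included 5 of the 6 markers, Kcnj1, Scnn1g, Calb1, the ligands Btc and Stc1, the tetraspanins Tspan12 and Tspan1, and the enzymes Adh1, Gstm2 and Cdo1. The remaining genes were Mgat4c, Ppic, Pcyox1, Tmem45b and Pls3. The ratio was 3.81 for Mgat4c (a glycosyltransferase gene, detected in 37 cells), 3.79 for Mcoln3 and 3.45 for Btc. Just inside the rule stood Aqp2 at 2.14, and just outside Plekha1 at 2.13 and Tbck at 2.12. Gstm2 had a median of 2848 TPM, Adh1 of 2444 TPM and Tspan12 of 1048 TPM, levels of the order of Aqp2. For 12 of the 20 the next highest type was the proximal tubule cells. Ranked by medians, 8 of the 20 were kept.

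Variation was described by the coefficient of variation (CV), the SD over the mean. Over the 1365 genes it ran from 0.484 to 4.95 with a median of 1.59. The 10 lowest were Actb (0.484), Tmsb4x, Rpl41, Malat1, Cox6a1, Ldhb, Ubb, Ndufa4, Gm37376 and Pdzk1ip1, of which 7 were also among the 15 most abundant. Tfcp2l1 (0.578), Fxyd4 (0.621), Atp1b1 (0.659) and Aqp2 (0.722) varied little, and Avpr2 (1.22), Kcnj1 (1.32) and Mcoln3 (1.49) varied more. The 10 highest were Zfp950 (4.95), S100g, Guca2a, Itgb1, Smarca2, Asah1, Ewsr1, Vegfa, Zfp106 and Kap. They rested on few cells, since 1 cell held 56.8% of the summed Zfp950 level, 49.2% of Guca2a and 44.3% of S100g. Ranked by the SD of log2(TPM + 1), 0 of these 10 remained.

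**Figure D4:**
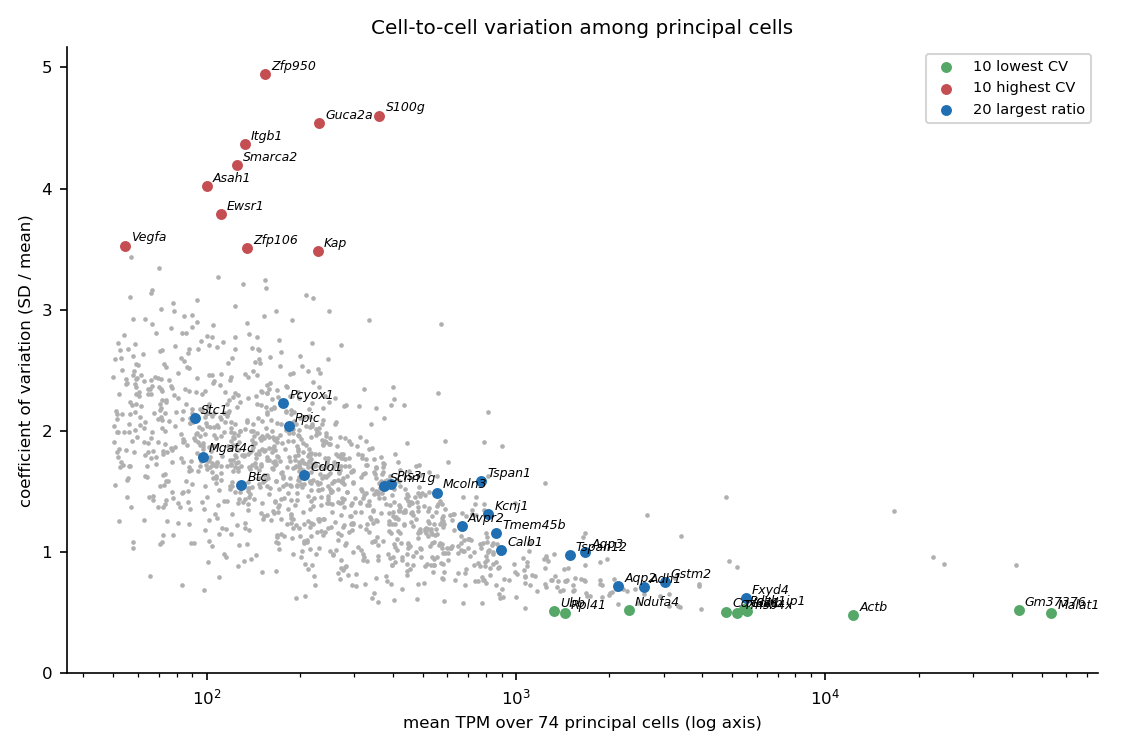
Each point is 1 of 1365 genes, with the mean TPM over 74 principal cells on a log axis and the CV on the vertical axis. The CV falls as the mean rises, the 10 most variable genes (red) stand above the cloud, and Fxyd4, Aqp2, Adh1 and Gstm2 lie near its lower edge.

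The markers varied together only loosely. Spearman's rho over the 15 pairs of markers ran from 0.07 to 0.51 across the 74 cells with a median of 0.31, a description of cells that share a TPM total. It was 0.51 for Aqp2 with Aqp3, 0.49 for Aqp2 with Fxyd4 and 0.45 for Fxyd4 with Aqp4. Calb1 against Aqp2 gave -0.06 over all cells, -0.39 in columns 1 to 37 and 0.32 in columns 38 to 74.

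Immediate early genes, which cells induce within minutes of a stimulus, were abundant. Fos was detected in 70 cells, from 0.04 to 6874 TPM with a median of 1720.0, and Egr1 in the same 70 cells with a median of 475 TPM. Of 12 immediate early and stress genes 11 were detected in at least 37 cells. Their highest mean was in principal cells for 3 (25%, against 32.7% of all genes detected in a principal cell). Fos stood at 2974 and 2838 TPM in the DBA pools and at a median of 8.75 TPM in the dissected CCD, in tables normalized separately.

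The sorted pools show which of these genes were higher in the DBA fraction. With limma on log2(TPM + 1) and Benjamini-Hochberg adjustment, 4033 of 14341 genes were higher (28.1%) and 2315 lower (16.1%) in DBA than in c-Kit pools at an adjusted p under 0.05. Quantile normalization moved the median of all genes by 0.13 (log2) and the calls to 3072 higher and 3055 lower, and leaving out either DBA pool left 2064 or 2144 higher. Nothing states that the pools came from separate animals, so p-values here and in the tubules measure only the spread between samples. In mixtures, more principal cells and more RNA per principal cell cannot be told apart. Aqp2 stood at 13651 and 11545 TPM in DBA and 1526 and 1082 TPM in c-Kit pools (3.29, SE 0.17, limma adjusted p = 2.31e-05). Fxyd4 stood at 3952 and 4074 against 442 and 339 TPM (3.37, SE 0.12, limma adjusted p = 7.46e-06). The groups did not overlap for either gene, as was so for 46.3% of all genes tested on the higher side in DBA and 27.6% on the lower. All 6 markers were higher, with a median difference of 2.95 against 0.11 over all genes, and all 13 intercalated markers were lower, with a median of -4.38. Kit, which encodes the receptor used to sort the c-Kit pools, is among the 13, so its direction may be set by the sort.

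All 20 genes of the ratio rule, which used single cells alone, were higher in DBA pools, from 0.57 for Pcyox1 to 3.37 for Fxyd4, and the groups overlapped for none, beside the 46.3% of all genes. Mgat4c stood at 22.1 and 24.1 TPM in DBA and 1.52 and 1.98 TPM in c-Kit pools (3.13, SE 0.16, limma adjusted p = 2.30e-05). Of the 9 water and vasopressin genes 4 were higher and 1 lower, beside 28.1% and 16.1% of all genes. The 4 included the markers Aqp2, Aqp3 and Avpr2, and Aqp4 stood at 88.5 and 79.3 against 7.72 and 4.82 TPM (3.57). Of 12 sodium and aldosterone genes 9 were higher and 1 lower, and the differences were 2.26 for Scnn1g, 1.44 for Scnn1b and 0.56 for Scnn1a. Scnn1a stood at 318 and 314 TPM in the DBA pools beside 939 and 906 TPM for Scnn1b, whereas the single-cell medians were 7.82 and 308 TPM, in tables normalized separately.

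Of 7 potassium channel genes tested 6 were higher in DBA pools, among them Kcne1 (2.54) and Kcnj1 (2.27), and Kcnq1 was lower (-0.29), a call lost without the second DBA pool. Of 14 transcription factors 10 were higher and 1 lower. These and the other list counts stand beside 28.1% of all genes higher and 16.1% lower in DBA. Gata2 differed by 1.64, and Elf5, detected in 4 single cells, by 2.38, from 1.34 and 1.49 TPM in c-Kit to 10.1 and 13.3 TPM in DBA pools. Tfcp2l1 was lower in DBA (-0.25, SE 0.06, limma adjusted p = 0.0156), a call lost on leaving out the first c-Kit pool or either DBA pool, at limma adjusted p between 0.0744 and 0.101. Of 12 ligands 7 were higher and 2 lower, with Wnt9b at 3.29 and Btc at 2.71, and of 10 receptors 7 were higher and 2 lower, with Ptger1 at 2.56 and Egfr at 2.10. Of 13 junction genes 8 were higher and 4 lower, with 2 lower without the first DBA pool, and of 6 tonicity genes 3 were higher and 1 lower. Of 7 cilium genes 4 were higher, but 2 without either DBA pool or the second c-Kit pool. Of 5 cell cycle genes Ccnb1 alone was called, lower in DBA, and that call was lost on leaving out any 1 of the 4 pools.

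Genes of other cells moved in the same contrast, in which 28.1% of all genes were higher and 16.1% lower in DBA. The 7 immune markers summed to 15948 and 16845 TPM in DBA against 5876 and 5711 TPM in c-Kit pools, with 6 of 7 higher. The 6 proximal markers summed to 4209 and 4544 against 2815 and 2545 TPM, with 5 of 6 higher, but 3 without either DBA pool. The 8 listed distal convoluted and connecting tubule markers went the other way in sum. They summed to 2737 and 2581 TPM in DBA against 10875 and 10887 TPM in c-Kit pools, with 3 of 8 lower and 1 higher. The part of immune, proximal, distal convoluted and connecting tubule cells in the differences above was not tested. Of 12 immediate early and stress genes 11 were higher in DBA pools, Fos by 1.51. Ren1, the renin gene at 0 TPM in every principal cell, stood at 332 and 440.1 TPM in DBA pools.

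The dissected tubules place the same genes along the nephron. limma called 1782 of 13520 genes higher (13.2%) and 744 lower (5.5%) in CCD than in cTAL, and the median of all genes differed by 0.31. Quantile normalization moved that median by 0.34 and the calls to 1221 higher and 1244 lower. Tubules share column prefixes whose meaning is not given. With 1 mean per prefix and group 1274 genes were higher and 549 lower, and with the prefix as a random block 1946 were higher and 817 lower. Genes at 1 TPM or more ran from 7621 to 14004 in CCD and from 8094 to 12385 in cTAL tubules. Without the CCD tubule of fewest such genes 2250 genes were higher and 828 lower. Without the cTAL tubule of fewest such genes 1655 were higher and 759 lower. Aqp2 ranged from 10199.6 to 22096 TPM with a median of 13951 in CCD and from 3.88 to 35.2 TPM with a median of 19.5 in cTAL (9.80, SE 0.30, limma adjusted p = 3.29e-17). Hsd11b2 had medians of 3598 and 2.73 TPM (9.86, SE 0.27, limma adjusted p = 3.66e-18). All 6 markers were higher in CCD with no overlap, which held for 3.4% of all genes tested on the higher side in CCD and 2.11% on the lower, and the smallest difference was that of Avpr2 (4.59, SE 0.35, limma adjusted p = 6.24e-10), whose cTAL median was 59.8 TPM.

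Of the 20 ratio genes 18 were higher in CCD, and 14 of the 20 did not overlap between groups, beside the 3.4% of all genes. Kcnj1 was not called, with medians of 942 TPM in CCD and 950.2 TPM in cTAL (0.04, SE 0.21, limma adjusted p = 0.928). Tspan12 was not called either, with medians of 126 and 113 TPM (0.18, SE 0.18, limma adjusted p = 0.539). No single-cell type carried a thick limb name, so the ratio rule had not compared principal cells with that segment. Scnn1b (9.41), Scnn1g (8.94), Kcne1 (8.57) and Adh1 (8.25) were far higher in CCD, and Scnn1a differed by 1.5 from a cTAL median of 126 TPM. Of 12 sodium and aldosterone genes 8 were higher and 1 lower, and of 8 water genes tested 4 were higher and 0 lower. Over all genes 13.2% were higher and 5.5% lower. The 4 water genes were the markers Aqp2, Aqp3 and Avpr2 together with Aqp4.

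The pump genes Fxyd2 (-1.95) and Atp1b1 (-0.67) were lower in CCD, and Fxyd4 was higher. Of 7 potassium channel genes tested 2 were higher and 2 lower, and Kcnj16 (-0.87) and Kcnk1 (-1.48) were lower in CCD but higher in DBA pools. Of 14 transcription factors 8 were higher and 1 lower, where 13.2% of all genes were higher and 5.5% lower. Gata2 had medians of 153 and 0.19 TPM (6.90) and Gata3 of 75.4 and 0.07 TPM (5.99). Tfap2b was lower in CCD (-0.91, SE 0.28, limma adjusted p = 0.0252), a call lost with 1 mean per prefix (limma adjusted p = 0.226). Elf3 was not called (1.79, SE 0.83, limma adjusted p = 0.146), but was higher at 2.40 without the CCD tubule that had the fewest genes at 1 TPM or more. Calb1 differed by 7.40 in the tubules and by 0.61 in the pools.

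Of 13 junction genes 9 were higher and 1 lower in CCD, of 10 receptors 4 and 1, of 11 ligands 5 and 2. Of 5 tonicity genes 1 was higher and 1 lower. The shares over all genes were 13.2% higher and 5.5% lower. Of 7 cilium genes limma called 0, and 0 had an unadjusted p under 0.05, with the smallest at 0.0658 for Arl13b, whose medians were 5.73 TPM in CCD and 1.69 TPM in cTAL. With sample weights Arl13b was called higher (limma adjusted p = 0.0122). All 13 intercalated markers were also higher in CCD, where they summed to a median of 5969 TPM beside 31268 TPM for the 6 principal markers. The 4 thick limb markers summed to a median of 217 TPM in CCD and 46909 TPM in cTAL.

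**Figure D5:**
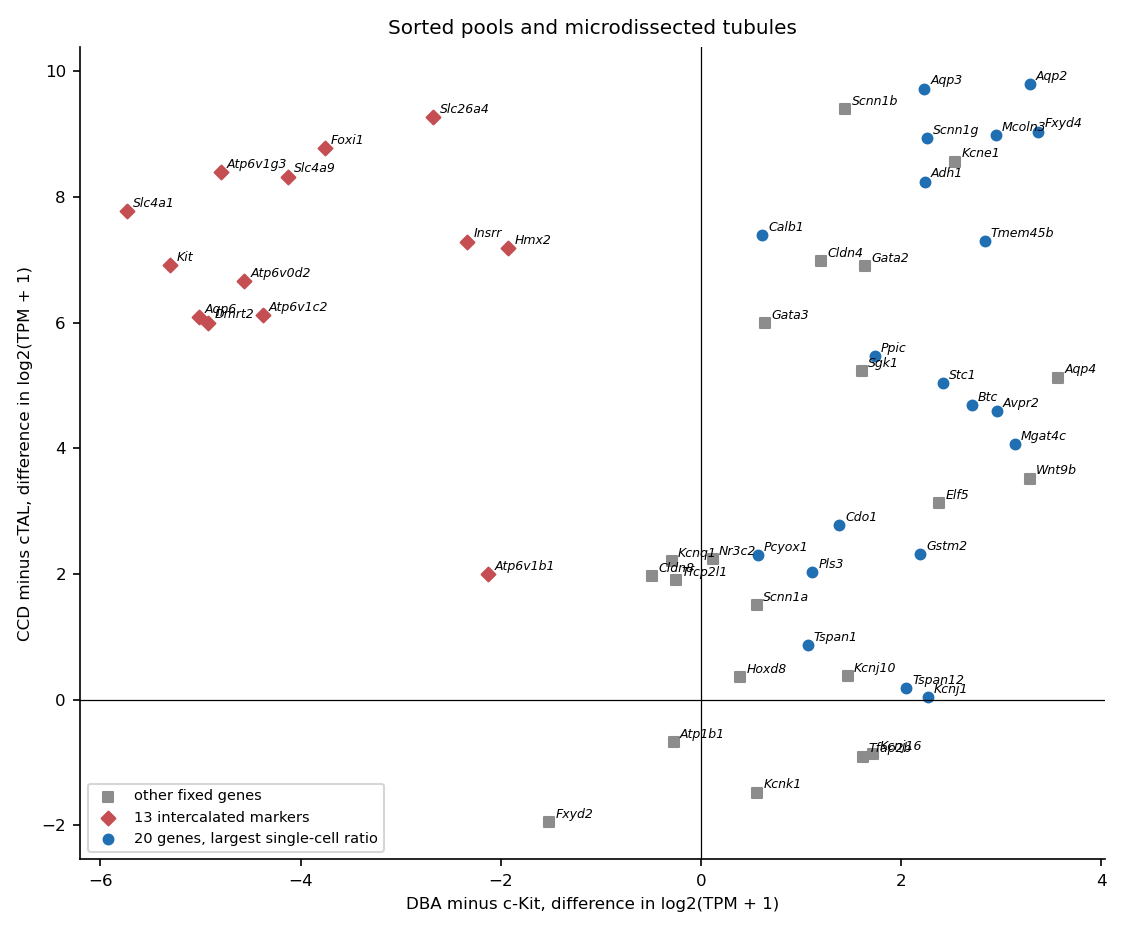
The axes give the difference in log2(TPM + 1) between DBA and c-Kit pools (horizontal) and between CCD and cTAL (vertical) for the 20 ratio genes (blue), 13 intercalated markers (red) and other listed genes (grey). Blue points lie to the right of 0, with Kcnj1 at 0.04 and Tspan12 at 0.18 closest to 0 on the vertical axis, red points lie to the left and above 0, and Fxyd2 and Atp1b1 lie below 0.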

How the data were processed

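The values were TPM tables that the authors deposited. The submitters' processing notes name STAR 2.5.1b, RSEM 1.2.31, Seurat and the build GRCm38.p5, with no role given; how reads were assigned to a strand is not stated there. Single-cell, pool and tubule tables were normalized separately, and tests were made only within a table. Each holds 47069 genes matched by Ensembl identifier, of which 46488 were found in GENCODE M21 (GRCm38). No depth is kept by TPM, so no interval of a level can be given. Each capture chamber held 1 cell, per the labels' protocols, and no doublet caller was run. No 2 cell columns were identical. The GFP-sorted samples were not used here.

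Means, SDs, quartiles and shares of cells were computed in Python 3.11.15 with scipy 1.17.1, and 95% intervals are exact Clopper-Pearson intervals. Pools and tubules were compared with limma 3.58.1 in R 4.3.3 on log2(TPM + 1) with a variance trend, for genes averaging 1 TPM or more, adjusted by the Benjamini-Hochberg method over all genes tested and called at 0.05. The fit was tested on simulated data. Fold changes on this scale understate changes of low genes.

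The members and gene lists were chosen with earlier results of these data known. Named genes are those of the lists, the 15 highest means, the 20 largest log2 ratios of mean + 1 to the highest other type, and the 10 highest and 10 lowest CVs, with ratios and CVs taken for genes averaging 50 TPM or more and detected in 50% of cells. Some genes fall under more than 1 part of the rule, and some listed genes are not reported here. Genes named by their detection along the columns, the 7 cells rich in intercalated markers, and Plekha1 and Tbck were chosen after their values were seen. Alternatives were other summaries and detection limits, pseudocounts of 0.1 and 5, other filters, quantile normalization, no trend, sample weights, a replicate block and leaving out samples. Those on column stretches, cells rich in intercalated or mitochondrial RNA, single tubules and column prefixes were added after seeing the data.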

Additional observations from a re-analysis of the deposited data

Results flagged for a closer look

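Among 21 marker and ratio genes, 6 had 1 of the 8 cTAL tubules far from the rest, with a gap to the nearest tubule that took up more than 0.526 of the whole range in log2(TPM + 1). For normally distributed values chance gives about 1 such group in 20. Genes near 0 TPM in cTAL, such as Mgat4c and Stc1, may not follow that rate. The highest cTAL value was 1.67 TPM for Mgat4c against a next value of 0.08 TPM, 1.61 against 0.25 TPM for Stc1, and 14.4 against 2.62 TPM for Calb1. It was 233 against 108 TPM for Cdo1 and 569.7 against 414 TPM for Tspan1. Tspan12 had a lowest value of 56.4 TPM below a next value of 94.4 TPM.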

How the results depend on the processing

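The 6 markers had their highest mean in principal cells under each summary and subset of cells tried. The authors named the cells of this same table, so this result is no separate support for the names. The count of 1365 genes past the mean and detection limits became 632 with medians and 495 with the mean of log2(TPM + 1), and of the 20 ratio genes 8 and 11 were kept. Of the 10 least variable genes 6 were kept with the SD of log2(TPM + 1) and 5 in columns 1 to 37. Of the 10 most variable, 2 were kept with detection at 5 TPM, 1 at 10 TPM, 5 after rescaling without mitochondrial genes, 0 with the SD of log2(TPM + 1), 6 without the cells rich in intercalated genes, 3 in columns 1 to 37 and 3 in columns 38 to 74. For detection limits fewer genes could enter the ranking; other causes were not tested.

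Leaving out 1 pool gave 2064 to 3732 genes higher and 1394 to 1969 lower in DBA, and a group left with 1 pool is assumed to vary like the other. The pools' replicate numbers did not pair (correlation of deviations 0.026), and a replicate block gave 3983 higher and 2288 lower. The 20 ratio genes were called higher in DBA under each alternative run. In the tubules, sample weights gave 3391 genes higher, quantile normalization 1244 lower, and 18 ratio genes were called under each alternative run. Egf turned to 0.49 in DBA without the first c-Kit pool and was -0.50 without the second, and Malat1 and Gm37376 to 0.54 and 0.37 in CCD with quantile normalization; the cause was not tested. The tubules' column prefixes, which both groups share, are covered by the random block given above, where the correlation within a prefix was 0.0988. Among list counts, quantile normalization moved the cilium genes higher in DBA from 4 to 2, the transcription factors lower in DBA from 1 to 2, and in CCD the receptors lower from 1 to 3 and the sodium and aldosterone genes lower from 1 to 2. TPM keeps no depth, so the depth behind a value of 0 is unknown.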
